A study of Mus musculus with 6 samples.

Results

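The Notch pathway and early secretory factors of the mouse intestinal crypt were described by 10 genes, listed by name with earlier results of these data known: the receptors Notch1 and Notch2, the ligands Dll1, Dll4, Jag1 and Jag2, the effectors Rbpj and Hes1, and the fate factors Atoh1 and Gfi1. All 10 were among the 24736 gene symbols of the deposited table, and all 10 passed the filter on low values. RNA sequencing had been performed on crypts from the full length of the gut of male mice aged 12 weeks, with 3 WT and 3 Mtg16-/- libraries as biological replicates and no treatment. Mtg16-/- mice lack MTG16, a transcriptional co-repressor. The labels call the knock-out CRISPR induced, whereas the methods describe mice received as a gift, and this was not resolved. Nothing in the labels or methods limits the deletion to the epithelium, so any other cell of these mice would carry it too. Values are TPM, transcript abundances scaled for gene length and for the total of a library, and levels of different genes can be compared on this scale.

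Notch is a signal between touching cells. A Delta-like or Jagged ligand on 1 cell binds a Notch receptor on its neighbour, the receptor is cut, and its intracellular part enters the nucleus, joins the DNA-binding protein RBPJ and switches on genes such as Hes1. HES1 is a repressor that keeps Atoh1 off. In the crypt, cells with active Notch stay stem cells or become enterocytes, while cells that escape it express Atoh1, make Delta-like ligands themselves and become Paneth, goblet or enteroendocrine cells. The study asked how MTG16 acts on stem cell genes and on the choice of lineage. The comparison of WT with Mtg16-/- crypts bears on the steady level of their transcripts.

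Sequences upstream of the start sites are shown for Rbpj, the single member whose genotypes did not overlap, for Atoh1, which carries the secretory decision, and for Dll1 and Jag1, the members with an E-box of the letters CAGCTG. They come from RefSeq (GRCm38.p6), on the gene's strand and 5′ to 3′, and end 1 base before an annotated start. Of the 10 members 9 had an entry, Hes1 having none. Capitals mark TGGGAA, the core of the RBPJ consensus, or CAGCTG, an E-box of the kind bound by proteins like ATOH1, searched on both strands. These 2 motifs do not overlap in the windows shown. The Rbpj window (chr5:53590096-53590345, plus strand) starts inside the annotated gene, the Atoh1 window is chr6:64728875-64729124 (plus strand), the Dll1 window chr17:15376933-15377182 (minus strand) and the Jag1 window chr2:137116521-137116770 (minus strand).
Rbpj: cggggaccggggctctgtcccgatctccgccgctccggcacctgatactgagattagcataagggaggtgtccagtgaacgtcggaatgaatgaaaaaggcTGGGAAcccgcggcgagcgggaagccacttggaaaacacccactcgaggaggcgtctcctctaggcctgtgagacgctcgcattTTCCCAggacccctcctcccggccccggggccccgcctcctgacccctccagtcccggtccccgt
Atoh1: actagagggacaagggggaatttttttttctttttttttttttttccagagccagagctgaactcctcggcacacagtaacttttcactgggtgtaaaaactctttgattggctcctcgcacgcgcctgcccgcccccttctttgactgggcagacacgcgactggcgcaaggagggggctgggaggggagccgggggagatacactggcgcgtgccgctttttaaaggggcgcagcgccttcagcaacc
Dll1: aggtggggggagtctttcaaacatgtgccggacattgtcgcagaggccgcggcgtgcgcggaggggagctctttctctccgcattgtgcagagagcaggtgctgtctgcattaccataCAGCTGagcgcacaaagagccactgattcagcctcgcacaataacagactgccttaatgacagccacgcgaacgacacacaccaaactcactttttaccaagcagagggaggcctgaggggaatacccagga
Jag1: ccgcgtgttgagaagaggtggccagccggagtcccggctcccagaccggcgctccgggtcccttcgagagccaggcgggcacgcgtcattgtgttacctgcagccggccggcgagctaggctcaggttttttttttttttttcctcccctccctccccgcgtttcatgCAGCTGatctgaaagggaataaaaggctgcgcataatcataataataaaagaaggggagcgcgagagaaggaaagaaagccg
The table gives a single window for 6 of the 9 members and a pair for Rbpj, Gfi1 and Dll1, 12 windows in all. TGGGAA or its complement occurred in 2 of the 12, both of Rbpj, and at 2 places in the window shown, with first bases at -149 and -65 from the start. The 2 Rbpj windows overlap, and the match at -205 in the other window is the same site as that at -65. Counted by gene, 1 of the 9 members held this motif. Over 32851 windows of 250 bases upstream of RefSeq starts, 21.6% held it. CAGCTG occurred in 2 of the 12 windows, at -132 in the Dll1 window shown and at -82 in Jag1, while the other Dll1 window lacked it, and 13% of all windows held it. Atoh1 held neither in this window, which says nothing about more distant elements.

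The gene that encodes MTG16, Cbfa2t3, had a TPM of 3.67, 6.69 and 4.52 in WT, whereas the libraries labelled Mtg16-/- had 4.62, 6.43 and 3.23, so the groups overlapped. A gene-level value sums all exons and cannot show a missing one, so the genotypes given below rest on the labels. Checked against the tissue label, 10 of 10 epithelial markers passed the filter, with a summed TPM of 12160 to 13560 in WT and 11890 to 13410 in Mtg16-/-. Of 10 endothelial markers, which matter because vessels also use Dll4 and Notch, 2 passed the filter and the sum was at most 6.05 TPM in any library. Of 10 stroma and muscle markers 3 passed, the sum was at most 9.95, and Lum was listed at 0 throughout. All 10 leukocyte markers passed, with sums from 73.1 to 157 TPM in WT and from 43.7 to 102 in Mtg16-/-.

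None of the 10 members was called different between the genotypes. The smallest adjusted p was 0.321, for Hes1, where a call needed an adjusted p under 0.1 in limma's moderated test on log2(TPM + 1). This test called 4 of the 12268 genes tested, 0.0326%, so it called few genes of any kind. The study reported many more genes as differing between these genotypes, with its own test on counts, which could not be run on TPM. At an unadjusted p under 0.05 in limma, Hes1 was the only member, higher in Mtg16-/-, against 6.53% of all tested genes higher and 8.05% lower. The estimated differences were 5 above and 5 below 0, with a median of -0.04 on the log2 scale, and a median of -0.03 over all tested genes. They ran from -0.28 for Dll4 to 0.43 for Hes1, and the order near the lower end changed with single libraries left out. The lowest TPM of Mtg16-/- was above the highest of WT in 1 member, Rbpj, against 9.94% of all tested genes, and no member had the opposite separation, against 11.1%.

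**Figure D1:**
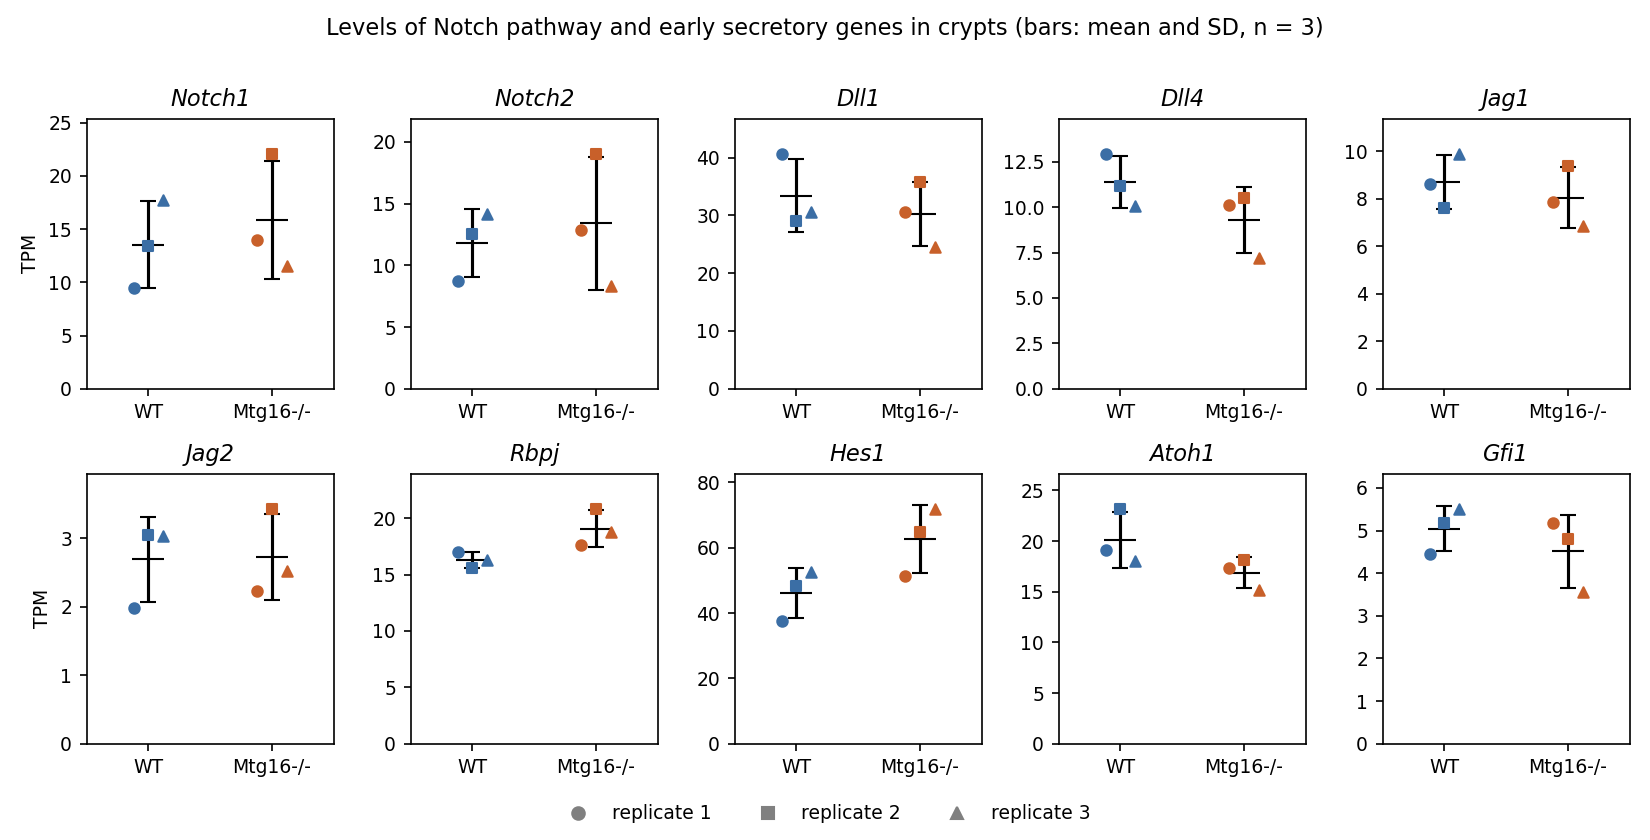
TPM of each gene (vertical axes, from 0) in the 3 WT and the 3 Mtg16-/- libraries, with symbols for the replicate numbers and black bars for the mean and SD (n = 3). The genotypes overlap in every panel except Rbpj, where WT lies between 15.6 and 17.0 and Mtg16-/- between 17.7 and 20.8.

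Levels of the members differed more between genes than between genotypes. Averaged over the 6 libraries, Hes1 was highest at a TPM of 54.4 and Jag2 lowest at 2.71. Between them lay Dll1 (31.8), Atoh1 (18.5), Rbpj (17.7), Notch1 (14.7), Notch2 (12.6), Dll4 (10.3), Jag1 (8.36) and Gfi1 (4.78). Each gene was above the next in all 6 libraries for Dll1 over Atoh1, Notch1 over Notch2, Dll4 over Jag1, Jag1 over Gfi1 and Gfi1 over Jag2. The order did not hold in every library for Hes1 over Dll1 or Notch2 over Dll4 (5 of 6 each), Rbpj over Notch1 (4 of 6) or Atoh1 over Rbpj (3 of 6). Hes1 and Dll1 changed places in WT replicate 1, where Dll1 had its highest and Hes1 its lowest value. The libraries also differed within a genotype. Mtg16-/- replicate 3 held the lowest value of 6 of the 10 members, where 31.5% of all tested genes were lowest in that library, and Mtg16-/- replicate 2 held the highest value of 4, against 20.3% of all tested genes.

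Notch1 (chromosome 2, 26457902 to 26503822 of GRCm38.p6) encodes, with Notch2, the receptors that keep crypt stem cells undifferentiated. Notch1 had a TPM of 9.50, 13.4 and 17.7 in WT and of 13.9, 22.1 and 11.5 in Mtg16-/-. Its log2 fold change was 0.20 (SE, its standard error, 0.28, 95% interval from -0.44 to 0.85, adjusted p 0.744). The replicates of a genotype spread widely, with an SD of 30.3% of the mean in WT and 34.8% in Mtg16-/-, and the groups overlapped throughout. Notch2 (chromosome 3, 98013538 to 98150367) had a TPM of 8.72, 12.6 and 14.1 in WT and of 12.9, 19.0 and 8.33 in Mtg16-/-. Its log2 fold change was 0.12 (SE 0.29, 95% interval from -0.55 to 0.80, adjusted p 0.863). Both receptors were highest in Mtg16-/- replicate 2, and without that library their log2 fold changes were -0.05 and -0.15. Without WT replicate 1 they were -0.01 and -0.06, so neither had a stable direction. The sum of the 2 receptors was 18.2, 26.0 and 31.8 TPM in WT and 26.8, 41.1 and 19.9 TPM in Mtg16-/-. Notch4, an endothelial receptor in most tissues, had a log2 fold change of 0.28 (adjusted p 0.554) at a mean TPM of 3.29, and Notch3 was at most 0.18 TPM in any library and was not tested.

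The 4 ligands differed in level by over an order of magnitude, and none was called. Dll1 (chromosome 17, 15367354 to 15376932), which marks early secretory progenitors, had a TPM of 40.6, 29.1 and 30.6 in WT and of 30.5, 35.7 and 24.5 in Mtg16-/-. Only WT replicate 1 and Mtg16-/- replicate 3 lay outside the range of the other genotype. The log2 fold change of Dll1 was -0.14 (SE 0.18, 95% interval from -0.56 to 0.28, adjusted p 0.734), and 0.0043 without WT replicate 1. Dll4 (chromosome 2, 119325784 to 119335666), the second Delta-like ligand of the crypt, which acts with Dll1, had a TPM of 12.9, 11.1 and 10.1 in WT and of 10.1, 10.5 and 7.19 in Mtg16-/-. Its WT replicate 3 was below 2 of the 3 Mtg16-/- libraries, so the groups overlapped. For Dll4 the log2 fold change was -0.28 (SE 0.18, 95% interval from -0.70 to 0.14, adjusted p 0.486). With each library left out it lay between -0.37 and -0.12, the latter without Mtg16-/- replicate 3.

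Jag1 (chromosome 2, 137081451 to 137116520) is a ligand of the Jagged class. Its TPM was 8.61, 7.59 and 9.88 in WT and 7.85, 9.39 and 6.85 in Mtg16-/-, and the values of the genotypes interleaved. The log2 fold change was -0.11 (SE 0.17, 95% interval from -0.50 to 0.29, adjusted p 0.788), between -0.21 without Mtg16-/- replicate 2 and -0.0089 without Mtg16-/- replicate 3. Jag2 (chromosome 12, 112907803 to 112929812), the other Jagged ligand, had a TPM of 1.98, 3.05 and 3.04 in WT and of 2.23, 3.43 and 2.52 in Mtg16-/-. Its log2 fold change of 0.02 (SE 0.22, 95% interval from -0.50 to 0.53, adjusted p 0.982) became -0.13 without WT replicate 1 and -0.12 without Mtg16-/- replicate 2. Dll3, a divergent ligand that does not itself activate Notch, lay below the minimum mean of 1 TPM and was singled out after its values were seen. Its TPM was 0.20, 0.34 and 0.49 in WT and 0.66, 0.89 and 0.76 in Mtg16-/-, with no overlap. In the fit without a filter, its log2 fold change was 0.40 (SE 0.11) and its limma adjusted p over 17505 genes was 0.325.

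The 4 ligands together came to 56.2 ± 7.02 TPM for WT and 50.3 ± 8.98 TPM for Mtg16-/- (SD, n = 3 each). Dll1 took 59.2% ± 3.58 of it for WT and 60.1% ± 0.380 for Mtg16-/- (SD, n = 3 each). Dll4 took 20.3% ± 1.55 and 18.4% ± 1.32 in the same order, and Jag1 15.6% ± 2.59 and 16.0% ± 0.600 (SD, n = 3 each). The share of Jag2 varied most for its size, at 4.92% ± 1.60 and 5.45% ± 0.922 (SD, n = 3 each), from 3.09% in WT replicate 1 to 6.13% in Mtg16-/- replicate 3. Each of these shares overlapped between the genotypes.

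**Figure D2:**
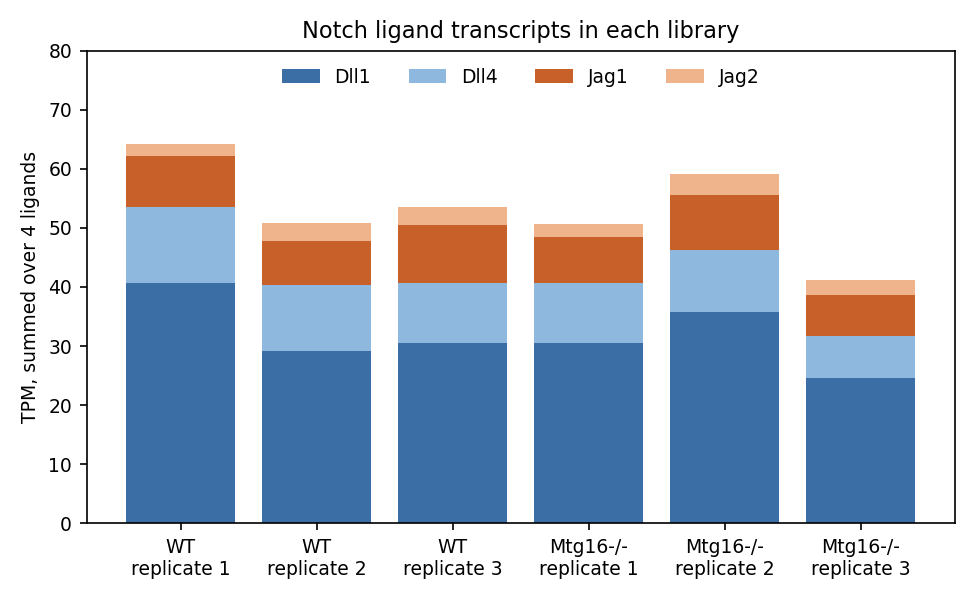
Stacked TPM of Dll1, Dll4, Jag1 and Jag2 in each of the 6 libraries (vertical axis, from 0). The sum runs from 41.1 TPM in Mtg16-/- replicate 3 to 64.2 TPM in WT replicate 1, and Dll1 is the largest block in every library.

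Rbpj and Hes1, the nuclear arm of the pathway, both had estimates above 0. Rbpj (chromosome 5, 53555779 to 53657445) had a TPM of 17.0, 15.6 and 16.3 in WT and of 17.7, 20.8 and 18.7 in Mtg16-/-. Every Mtg16-/- library was above every WT library, although the nearest values, 17.0 and 17.7, lay close together. The log2 fold change of Rbpj was 0.21 (SE 0.13, 95% interval from -0.08 to 0.50, adjusted p 0.447), and between 0.15 and 0.26 with each library left out. It was also the member with the tightest replicates, with an SD of 4.42% of the mean in WT and 8.48% in Mtg16-/-. Separated groups of this kind occurred in 9.94% of all tested genes in the same direction.

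Hes1 (chromosome 16, 30065357 to 30067796), the main Notch target of the crypt, had a TPM of 37.6, 48.2 and 52.6 in WT and of 51.2, 64.9 and 71.9 in Mtg16-/-. The groups overlapped only in that WT replicate 3 was above Mtg16-/- replicate 1. The mean TPM was 1.36 times as high in Mtg16-/- (62.7 ± 10.5) as in WT (46.1 ± 7.70, SD of 3 libraries each). On the log2 scale the difference was 0.43 (SE 0.18, 95% interval from 0.03 to 0.84), with an unadjusted p of 0.0391 and an adjusted p of 0.321 in limma. With each library left out it stayed between 0.30, without WT replicate 1, and 0.57, without Mtg16-/- replicate 1.

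Hes1 is expressed by stem and progenitor cells, and marker levels of 2 cell types are given beside it. All 10 stem cell markers had estimates above 0, of which 6 did not overlap between genotypes, where 9.94% of all tested genes were separated in that direction. The sum of these markers was 913 to 1549 TPM in WT and 1674 to 2224 TPM in Mtg16-/-. All 10 enterocyte markers had estimates below 0, of which 4 did not overlap, where 11.1% of all tested genes were so separated, with a sum of 11630 to 34240 TPM in WT and 5964 to 11790 TPM in Mtg16-/-. No stem cell or enterocyte marker was called. WT replicate 1 had the lowest Hes1, the lowest stem cell sum and the highest enterocyte sum of the 6 libraries. In bulk crypts, more cells of a type and more RNA per cell cannot be told apart, and the part of these cell types in the values of Hes1 was not tested.

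Atoh1 (chromosome 6, 64729125 to 64731245), the factor that commits progenitors to the secretory lineage, had a TPM of 19.1, 23.2 and 18.0 in WT and of 17.3, 18.2 and 15.2 in Mtg16-/-. Mtg16-/- replicate 2 was just above WT replicate 3, and otherwise the Mtg16-/- values were below those of WT. The log2 fold change of Atoh1 was -0.23 (SE 0.14, 95% interval from -0.57 to 0.10, adjusted p 0.466), and it stayed between -0.31, without WT replicate 3, and -0.13, without WT replicate 2. The interval reaches a rise of no more than 0.10 on the log2 scale. Gfi1 (chromosome 5, 107716655 to 107725805), a zinc finger repressor that acts after Atoh1 to set goblet and Paneth against enteroendocrine fate, had a TPM of 4.46, 5.17 and 5.51 in WT and of 5.17, 4.81 and 3.55 in Mtg16-/-. Its values interleaved except for Mtg16-/- replicate 3, which was lowest. For Gfi1 the log2 fold change was -0.14 (SE 0.18, 95% interval from -0.57 to 0.28, adjusted p 0.731), and was -0.01 without Mtg16-/- replicate 3.

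Atoh1 and Gfi1 had estimates below 0 in crypts where the markers of 2 secretory cell types had estimates above 0. All 10 Paneth cell markers had estimates above 0, with 6 not overlapping against 9.94% of all tested genes, and summed to 9807 to 22520 TPM in WT and 27280 to 34570 TPM in Mtg16-/-. All 10 enteroendocrine markers likewise had estimates above 0, also with 6 not overlapping, and summed to 421 to 544 TPM in WT and 609 to 702 TPM in Mtg16-/-. The 10 goblet cell markers were split, 4 above and 6 below 0, and their sums overlapped (7703 to 12450 TPM and 7100 to 9845 TPM). Tuft cell markers, of which 8 of 10 were tested, had 1 estimate above and 7 below 0, with overlapping sums (66.1 to 135 TPM and 53.7 to 78.4 TPM). None of the markers in these lists was called, and their part in the values of Atoh1 and Gfi1 was not tested.

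**Figure D3:**
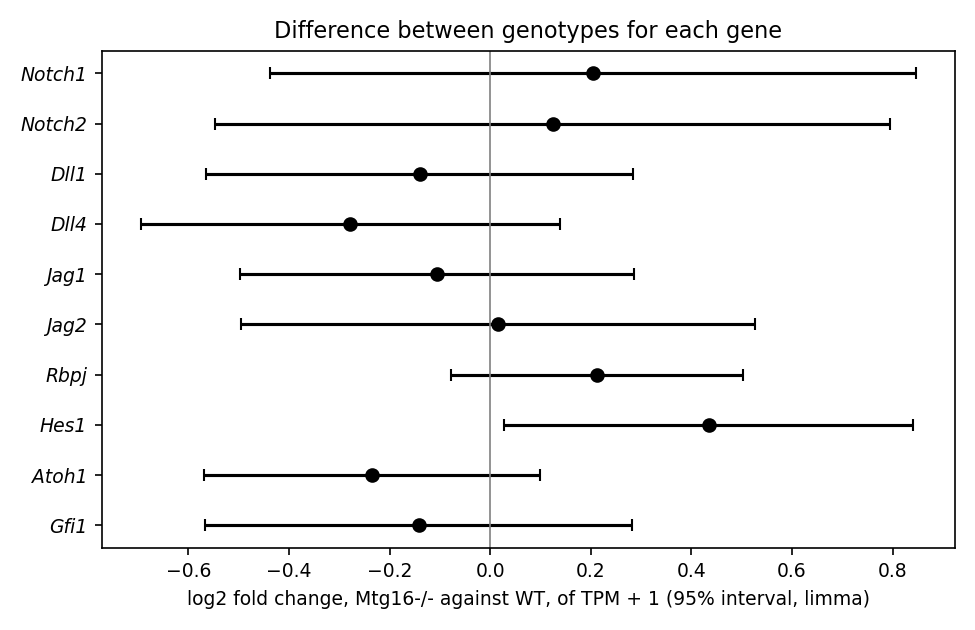
Difference between Mtg16-/- and WT for each gene as the log2 fold change of TPM + 1 (horizontal axis), with the 95% interval from limma as bars. The intervals of 9 genes include 0, and that of Hes1 runs from 0.03 to 0.84.

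Ratios of members within a library do not depend on how libraries are scaled against each other, and 6 ratios were compared between genotypes. The ratio of Atoh1 to Hes1, of the factor for secretory fate to its repressor, had a log2 value of -0.98, -1.06 and -1.55 in WT and of -1.57, -1.84 and -2.24 in Mtg16-/-. All 3 Mtg16-/- libraries were lower than all 3 WT libraries, but WT replicate 3 and Mtg16-/- replicate 1 differed by little. The mean ratio was 0.69 log2 units lower in Mtg16-/-, a difference of -0.69 (two-sided exact permutation test, p = 0.1, the smallest that 3 against 3 allow, and 0.6 after Benjamini-Hochberg adjustment over the 6 ratios). The remaining 5 ratios overlapped. Their differences on the log2 scale were 0.09 for Notch1 to Notch2, 0.16 for Dll1 to Dll4, -0.14 for Jag1 to Jag2, 0.07 for Gfi1 to Atoh1 and 0.10 for Dll1 to Atoh1, with p between 0.3 and 0.8 in the same exact permutation test and 0.8 each after adjustment. The log2 ratio of Dll1 to Dll4 was 1.55 ± 0.142 for WT and 1.71 ± 0.0988 for Mtg16-/- (SD, n = 3 each).

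**Figure D4:**
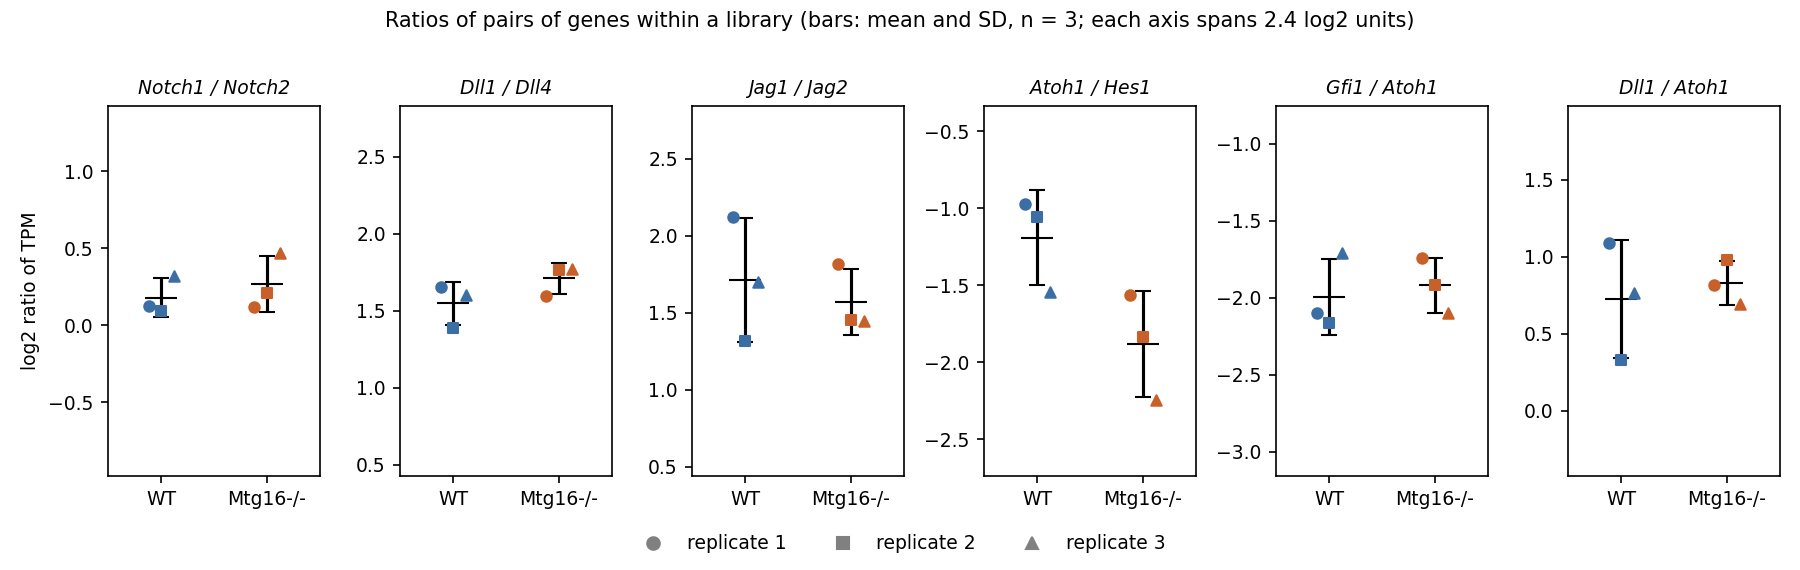
Log2 ratio of the TPM of 2 genes in each library (vertical axes, each with the same span), with the mean and SD of 3 libraries as black bars and symbols for the replicate numbers. The genotypes separate for Atoh1 to Hes1 alone, with WT from -0.98 to -1.55 and Mtg16-/- from -1.57 to -2.24.

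The rest of the Notch pathway was read through a list of 65 genes by role, of which 8 are members. Of the 65 genes 52 were tested, and 0 were called by limma. At an unadjusted p under 0.05, 5 were higher and 2 lower in Mtg16-/-, where 6.53% and 8.05% of all tested genes were. The groups did not overlap for 7 higher and 1 lower gene, where 9.94% and 11.1% of all tested genes were so separated. The median log2 fold change of the list was -0.03, the same to 2 decimals as over all tested genes.

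Among the genes that act on the ligand, Neurl1a, a ubiquitin ligase of the Neuralized class, had a TPM of 0.83, 1.10 and 1.21 in WT and of 2.19, 2.70 and 2.15 in Mtg16-/-. These groups did not overlap, but the mean of 1.70 TPM over all libraries lay close to the minimum of 1 TPM for testing. The log2 fold change of Neurl1a was 0.71 (SE 0.20, adjusted p 0.263), or 1.10 with a pseudocount of 0.1. Its relative Neurl3, the most abundant gene of that role with a mean TPM of 160, had a log2 fold change of -0.23 (adjusted p 0.562), and of -0.07 without WT replicate 1. Mib1, which ubiquitinates Notch ligands for their endocytosis, was singled out after its values were seen, with a log2 fold change of -0.00038 (SE 0.16).

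Among the genes that modify or cut the receptor, Poglut1, which adds glucose to Notch repeats, had a TPM of 8.63, 8.96 and 10.1 in WT and of 10.5, 13.2 and 13.7 in Mtg16-/-, a log2 fold change of 0.39 (SE 0.15, adjusted p 0.314). Rfng, a Fringe glycosyltransferase, had a log2 fold change of -0.38 (SE 0.15, adjusted p 0.314). Its TPM of 47.6, 41.8 and 36.7 in WT overlapped that of 37.3, 29.6 and 29.4 in Mtg16-/- through WT replicate 3. Psenen, a subunit of the γ-secretase that releases the intracellular part, was the most abundant gene for cleavage with a mean TPM of 175, and had a log2 fold change of -0.12 (adjusted p 0.645). Numb, an inhibitor of Notch that is passed unequally to daughter cells, had a TPM of 77.7, 48.7 and 54.7 in WT and of 49.97, 40.3 and 34.8 in Mtg16-/-. Its groups overlapped, with a log2 fold change of -0.51 (SE 0.20, adjusted p 0.318), and -0.32 without WT replicate 1. That library held the highest value of Numb, of the enterocyte sum and of 31.4% of all tested genes.

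In the nucleus, Maml3, a Mastermind coactivator of the RBPJ complex, had a TPM of 4.83, 6.46 and 5.56 in WT and of 8.46, 8.48 and 6.47 in Mtg16-/-. The groups were separated by 0.01 TPM between WT replicate 2 and Mtg16-/- replicate 3, and the log2 fold change was 0.41 (SE 0.17, adjusted p 0.338). Cir1, a corepressor that binds RBPJ, had a TPM of 12.9, 9.99 and 11.2 in WT and of 15.1, 14.7 and 15.7 in Mtg16-/-, a log2 fold change of 0.40 (SE 0.14, adjusted p 0.291). Snw1 and Ctbp1, the most abundant genes among the nuclear complex and the corepressors, had log2 fold changes of 0.16 and 0.15 (adjusted p 0.563 and 0.588), and of 0.063 and 0.061 without WT replicate 1.

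Of the 9 HES and HEY genes 3 were tested, Hes1, Hes2 and Hes6. Hes2, a repressor of the same family, had a TPM of 14.9, 5.85 and 6.84 in WT and of 7.36, 3.79 and 2.99 in Mtg16-/-, and was singled out after its values were seen. Its groups overlapped through Mtg16-/- replicate 1, with a log2 fold change of -0.81 (SE 0.38, adjusted p 0.368). Hes6, which counteracts HES1 and is found in differentiating cells, was the most abundant of them by the mean over all libraries, a TPM of 58.4. In every Mtg16-/- library, however, Hes6 lay below Hes1. Its TPM was 60.6, 69.5 and 60.7 in WT and 50.1, 51.2 and 58.3 in Mtg16-/-, with every Mtg16-/- library below every WT library. For Hes6 the log2 fold change was -0.25 (SE 0.12, adjusted p 0.379), on the other side of 0 from Hes1. Hes3 and Hey2 were listed at 0 in every library. Hes5, singled out after its values were seen, was at 0.36, 1.17 and 0.64 TPM in WT and at 0, 0.17 and 0.15 TPM in Mtg16-/-, below the minimum for testing (adjusted p 0.325 in the fit without a filter). Nrarp, a feedback inhibitor induced by Notch and also singled out after its values were seen, had a log2 fold change of 0.12 (SE 0.17, adjusted p 0.762) and overlapping groups, and its difference from Hes1 was not tested.

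**Figure D5:**
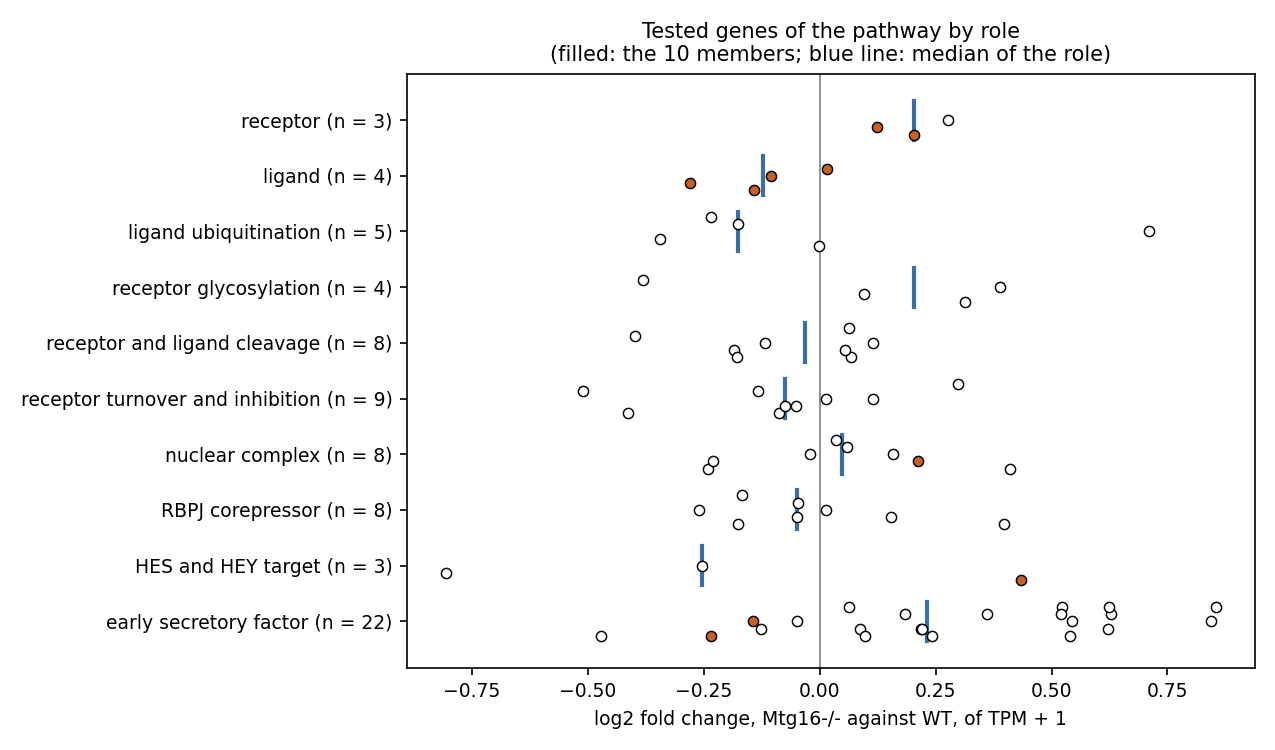
Log2 fold change of TPM + 1, Mtg16-/- against WT (horizontal axis), for each tested gene of the Notch and early secretory lists, by role. Filled points are the 10 members and blue lines the median of each role. The 3 tested receptors lie above 0, ligands lie mostly below 0, and 17 of the 22 early secretory factors lie above 0. Notch1, Notch2, Dll1 and Jag2 changed sign with single libraries left out.

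Early secretory factors other than Atoh1 and Gfi1 were listed as well, 24 genes with those 2, of which 22 were tested. None was called by limma. At an unadjusted p under 0.05, 8 of the 22 were higher and 0 lower in Mtg16-/-, against 6.53% and 8.05% of all tested genes. The groups did not overlap for 8 higher genes and 1 lower gene, against 9.94% and 11.1% of all tested genes. Isl1 and Pax6 count in both sets of 8. Their WT means were 0.97 and 0.68 TPM, and they passed the filter only through their Mtg16-/- values. The median log2 fold change was 0.23, with 17 estimates above 0 and 5 below where all tested genes had 5687 above and 6581 below, and Atoh1 and Gfi1 were among the 5. Of the 8 higher at an unadjusted p under 0.05, 6 belong to the enteroendocrine branch, in which the list is rich. Pax4 and Rfx6, tested factors of the same branch, were not among these 8. Their log2 fold changes were 0.06 and 0.54 (limma adjusted p 0.910 and 0.382).

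Neurog3, the factor that commits cells to the enteroendocrine fate downstream of Atoh1, had a TPM of 3.34, 5.10 and 5.80 in WT and of 5.22, 11.3 and 12.6 in Mtg16-/-. Only Mtg16-/- replicate 1 lay within the WT range, and the log2 fold change was 0.84 (SE 0.32, adjusted p 0.309). Neurod1, a direct successor of Neurog3, had a log2 fold change of 0.62 (SE 0.21, adjusted p 0.282). Insm1, Isl1, Pax6 and Nkx2-2, further factors of endocrine differentiation, had log2 fold changes of 0.63, 0.62, 0.54 and 0.52 (adjusted p 0.318, 0.292, 0.311 and 0.327). The values of Isl1 and Pax6, at low TPM, became 0.99 and 0.98 with a pseudocount of 0.1, and that of Insm1 became 0.40 without WT replicate 1. None of these 5 overlapped between genotypes. All 5 were named for an unadjusted p under 0.05 in limma, which favours separated groups. The 9.94% of all tested genes separated in that direction is therefore no fair comparison. Isl1 and Pax6 had WT means of 0.97 and 0.68 TPM and reached the minimum mean of 1 TPM only through their Mtg16-/- values. For Nkx2-2 the nearest values were 3.98 TPM in WT replicate 1 and 4.03 TPM in Mtg16-/- replicate 1. These genes are expressed in enteroendocrine cells, whose 10 markers summed to 421 to 544 TPM in WT and 609 to 702 TPM in Mtg16-/-, and the part of that difference was not tested.

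Sox9, expressed in stem and Paneth cells, had a TPM of 15.8, 25.6 and 30.7 in WT and of 36.4, 51.7 and 41.6 in Mtg16-/-, a log2 fold change of 0.86 (SE 0.24, adjusted p 0.263). Foxa1, a forkhead factor needed for goblet and enteroendocrine cells, had a TPM of 13.3, 16.0 and 13.6 in WT and of 19.6, 22.4 and 21.0 in Mtg16-/-, a log2 fold change of 0.52 (SE 0.13, adjusted p 0.247). Both stood apart without overlap. Each was named for an unadjusted p under 0.05 in limma, which favours separated groups. The 9.94% of all tested genes separated in that direction is no fair comparison here either. Xbp1, which builds the secretory apparatus and was the most abundant factor with a mean TPM of 165, had a log2 fold change of -0.13 (adjusted p 0.613), 0.02 after quantile normalization. Spdef, a goblet and Paneth factor downstream of Atoh1 singled out after its values were seen, had a log2 fold change of 0.10 (SE 0.20, adjusted p 0.835) and overlapping groups.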

How the data were processed

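Crypts of 3 WT and 3 Mtg16-/- mice were isolated in EDTA and total RNA depleted of ribosomal RNA was sequenced. The authors deposited RSEM TPM values per gene symbol, 1 column per library. The submitters' processing notes name cutadapt 1.9.1, STAR 2.5.2a, RSEM 1.3.0, DESeq2 1.12.3 and build mm10. As TPM holds no counts, library depth is unknown and count tests, the authors' DESeq2 included, could not be run; no interval or floor based on counts is given. Libraries correlated with r between 0.931 and 0.980 across genes, and no 2 were identical.

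Values were taken as log2(TPM + 1). A mean of 1 TPM or more across the 6 libraries was required, which left 12268 of 24736 symbols for limma 3.58.1 in R 4.3.3 (intensity trend, no covariate), with Benjamini-Hochberg adjustment over all of them and calls at an adjusted p under 0.1, the limit of the study's own gene table. Fold changes on this scale understate those of genes with low TPM. The calculation was tested on simulated libraries with planted changes. Each library is 1 biological replicate, as the series design states.

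The members and lists were chosen with earlier results of these data known, and lists come from general knowledge. Named genes are the 10 members, Cbfa2t3, list genes with an unadjusted p under 0.05 and the gene with the highest mean TPM of each role, unless said otherwise. Coordinates and promoter sequences are from RefSeq GRCm38.p6, the assembly that mm10 denotes. Alternatives were a pseudocount of 0.1, no filter, a minimum of 5 TPM, median-ratio rescaling, quantile normalization, no trend, the replicate block, an adjusted p under 0.05 and each library left out.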

Additional observations from a re-analysis of the deposited data

How the results depend on the processing

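No member, Notch pathway gene or early secretory factor was called by limma with a pseudocount of 0.1, without the filter, with a minimum of 5 TPM, after either rescaling, without the trend, at an adjusted p under 0.05 or with any 1 library left out. The count of genes called among all tested, 4, became 0 without the filter, without the trend and at 0.05, 15 with a minimum of 5 TPM, 1 after either rescaling and between 0 and 20 with a library left out, 20 being without WT replicate 1. The replicate block gave 1201 calls (385 higher, 816 lower), but the labels give these libraries only a shared number. Deviations from the group means correlated with r = 0.429, 0.0753 and 0.237 for the same-numbered pairs, not all above the 0.1 required. WT replicate 2 correlated best with Mtg16-/- replicate 3 (0.198), whereas each Mtg16-/- library correlated best with the WT library of its own number. Whether same-numbered libraries share a batch was not tested. This block called 1 member, Hes1 (adjusted p = 0.0664), 3 Notch pathway genes, Hes1, Hes2 and Numb, and 3 early secretory factors, Foxa1, Neurog3 and Sox9. The cause of these differences was not tested.

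Directions turned in 11 of 394 values for 31 genes. Many of these values could not turn. The fits without the filter, with a minimum of 5 TPM, with the block and without the trend leave an estimate unchanged by construction. Quantile normalization turned Xbp1 to 0.017 and Psenen to 0.0049. Leaving out WT replicate 1 turned Notch1 to -0.01, Notch2 to -0.06, Dll1 to 0.0043 and Jag2 to -0.13, and leaving out Mtg16-/- replicate 2 turned Notch1 to -0.047, Notch2 to -0.15 and Jag2 to -0.12. Cbfa2t3 turned to 0.14 without WT replicate 2 and to 0.15 without Mtg16-/- replicate 3. Over all ways of leaving out a library, the log2 fold changes lay between -0.05 and 0.41 for Notch1, -0.15 and 0.40 for Notch2, -0.26 and 0.0043 for Dll1, -0.13 and 0.11 for Jag2 and -0.26 and 0.15 for Cbfa2t3. The difference between genotypes in the ratio of 2 members lay between -0.0143 and 0.162 for Notch1 to Notch2, 0.0819 and 0.219 for Dll1 to Dll4, -0.34 and 0.0625 for Jag1 to Jag2, -0.867 and -0.509 for Atoh1 to Hes1, -0.0154 and 0.213 for Gfi1 to Atoh1 and -0.0963 and 0.283 for Dll1 to Atoh1. A pseudocount of 1 turned none of the 6, and the block leaves each difference unchanged by construction. Notch1 to Notch2 turned without Mtg16-/- replicate 3, and Jag1 to Jag2 without WT replicate 1. Leaving out WT replicate 2 turned Dll1 to Atoh1, and turned Gfi1 to Atoh1 to -0.0145. Gfi1 to Atoh1 also turned without Mtg16-/- replicate 1, to -0.0154. Ligand and receptor genes with few TPM are limited by the unknown depth.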
